A study of Mus musculus with 17 samples.

Results

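Ido1 and 9 further genes of the kynurenine route were followed through the tumor libraries of the series: Ido1, Ido2 and Tdo2, the dioxygenases that open tryptophan's ring, Afmid, Kynu, Kmo, Haao and Qprt, the enzymes after them, Ahr, a receptor for kynurenine, and Wars, the tryptophanyl-tRNA synthetase. The 10 genes were chosen by name and not by their values, and each matched 1 row among the 55421 genes counted. The choice was nevertheless made with results on Ido1 known, because the study had singled out this gene. Colon tumors had been induced with AOM-DSS, that is, the carcinogen azoxymethane followed by dextran sulfate sodium, which inflames the colon. RNA was sequenced in 17 libraries. Tyk2Δ/Δ mice (labelled Tyk2KO, 3 libraries) carry a deleted Tyk2 allele in every cell, made by crossing floxed mice to a CMV-cre deleter, and were compared with Tyk2+/+ littermates (Tyk2wt, 3 libraries). Tyk2ΔIEC mice (Tyk2DIEC, 4 libraries) are Tyk2fl/fl mice in which Villin-cre removes the floxed segment from intestinal epithelial cells, and were compared with cre-negative Tyk2fl/fl mice (Tyk2fl, 7 libraries). All groups were on the C57BL/6 background and received AOM-DSS, and ages are not given in the labels. Stroma and immune cells of Tyk2ΔIEC tumors keep Tyk2.

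Mammals degrade most tryptophan through kynurenine. In liver, Tdo2 carries out the first step. Elsewhere Ido1 does so, and it is known as a gene that interferon gamma switches on through Jak1 and Jak2, and, in tumors, as an enzyme whose products restrain T cells. Afmid turns the first product into kynurenine, from which Kmo, Kynu, Haao and Qprt lead towards NAD. Wars charges tRNA with tryptophan, and it too is known to be induced by interferon gamma. Tyk2 is a Janus kinase of receptors for type I interferon and interleukin 12.

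The libraries held 19129696 to 21707373 counted reads in the Tyk2Δ/Δ, Tyk2+/+ and Tyk2ΔIEC groups, and 29777763 to 35427965 in the Tyk2fl/fl group. Levels are given as CPM, that is, counts scaled to a common library total with TMM factors over all libraries. Whole-gene Tyk2 levels were 58.0 to 59.0 CPM in Tyk2Δ/Δ and 55.5 to 57.7 CPM in Tyk2+/+ libraries, and 51.8 to 55.7 CPM in Tyk2ΔIEC and 42.5 to 54.1 CPM in Tyk2fl/fl libraries. The floxed segment is only a part of the gene, so whole-gene counts do not check the labels. Tyk2fl/fl replicates 1 to 3 stood apart by Xist, the RNA of the inactive X chromosome, at 40656 to 45446 counts, against at most 106 in every other library. The 6 epithelial markers examined, among them Epcam, Krt8, Krt18 and Krt20, summed to 5495 to 8513 CPM, and were detected in every group. The labels speak of single tumors and the study's text of pooled tumor samples, and neither ties a library to a mouse, so each p-value below measures the spread between these libraries only. Fewer cells of a type and less RNA per cell cannot be told apart in such bulk tumor RNA.

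Promoter windows are shown for a gene of the upstream signal and for enzymes of the pathway, with short sequences known from the response to interferon gamma and to Ahr. The motifs searched, on both strands, were TTCNNNGAA (GAS, the interferon gamma activated site), the core of the interferon-stimulated response element and GCGTG (the core bound by Ahr with Arnt). They do not overlap in the windows printed. Each window runs from 250 bases before to 50 after a start site in RefSeq (GRCm38.p6), and 5 of the 10 genes matched a window of that table (Tdo2, Afmid, Kmo, Haao and Qprt). Irf1, an activator of interferon-inducible genes that changed with Ido1 in both comparisons below, has 2 windows, of which the one with a GAS is shown, chr11:53769764-53770063 (plus strand). Kmo (chr1:175631943-175632242, plus strand) and Haao (chr17:83846741-83847040, minus strand) are shown because their log2 fold changes were the most negative after that of Ido1 in Tyk2Δ/Δ tumors, although neither passed the test. Capitals mark the motifs.
Irf1: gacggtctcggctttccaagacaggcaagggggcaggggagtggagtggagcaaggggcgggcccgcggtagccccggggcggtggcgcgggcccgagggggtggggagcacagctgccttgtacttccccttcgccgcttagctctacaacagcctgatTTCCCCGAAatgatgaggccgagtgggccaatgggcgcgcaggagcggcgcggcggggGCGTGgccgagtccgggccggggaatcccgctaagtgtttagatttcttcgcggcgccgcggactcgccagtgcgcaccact
Kmo: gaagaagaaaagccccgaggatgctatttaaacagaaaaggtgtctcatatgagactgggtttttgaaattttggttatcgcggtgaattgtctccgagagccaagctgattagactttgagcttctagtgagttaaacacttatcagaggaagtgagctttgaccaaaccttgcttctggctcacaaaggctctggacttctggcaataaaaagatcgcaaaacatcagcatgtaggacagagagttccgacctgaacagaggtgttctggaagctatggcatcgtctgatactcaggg
Haao: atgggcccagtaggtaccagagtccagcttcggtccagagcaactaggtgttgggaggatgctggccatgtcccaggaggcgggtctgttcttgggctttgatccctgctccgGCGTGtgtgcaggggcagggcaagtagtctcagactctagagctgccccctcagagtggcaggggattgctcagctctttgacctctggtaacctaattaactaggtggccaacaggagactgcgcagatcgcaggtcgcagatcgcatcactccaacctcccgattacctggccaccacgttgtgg
The Irf1 window holds 1 GAS and 1 GCGTG, the Haao window 1 GCGTG, and the Kmo window none of the 3 motifs. Among the other members' windows, Qprt held 1 GAS and Tdo2 1 GCGTG, and Afmid held none of the 3. Of the other upstream genes, Jak2, Stat2 and Irf9 each passed in a comparison below, and no window of theirs held a GAS. The Stat2 window held 1 interferon-stimulated core and 3 GCGTG, the Jak2 window 4 GCGTG, and the Irf9 windows none of the 3 motifs. A window of Irf8, which did not pass, held 2 GAS and 1 GCGTG. That of Ifng, which was not tested, held 1 GAS. The Ifngr1 and Jak1 windows held 2 and 1 GCGTG. Of the 32851 windows in the table, 8.3% hold a GAS, 3.44% the interferon-stimulated core and 32.4% GCGTG, so that such matches are common and are given as a description only.

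Ido1, on chr8:24584136-24597009 (GRCm38, minus strand), was low in Tyk2Δ/Δ tumors and high in Tyk2ΔIEC tumors relative to their own controls. In the Tyk2Δ/Δ libraries it had 4.62, 2.28 and 3.38 CPM (100, 46 and 72 counts), against 28.5, 54.3 and 85.2 CPM (596, 1058 and 1770 counts) in the Tyk2+/+ libraries. In the Tyk2ΔIEC libraries it had 34.9, 25.9, 46.7 and 36.6 CPM (730, 508, 971 and 722 counts), and the 7 Tyk2fl/fl libraries ran from 2.67 to 20.6 CPM with a median of 4.16 CPM (94 to 738 counts). The ranges did not overlap in either comparison, as was so for 14% of tested genes in that direction in the Tyk2Δ/Δ and for 7.73% in the Tyk2ΔIEC comparison. The nearest libraries were Tyk2ΔIEC replicate 2 and Tyk2fl/fl replicate 1.

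**Figure D1:**
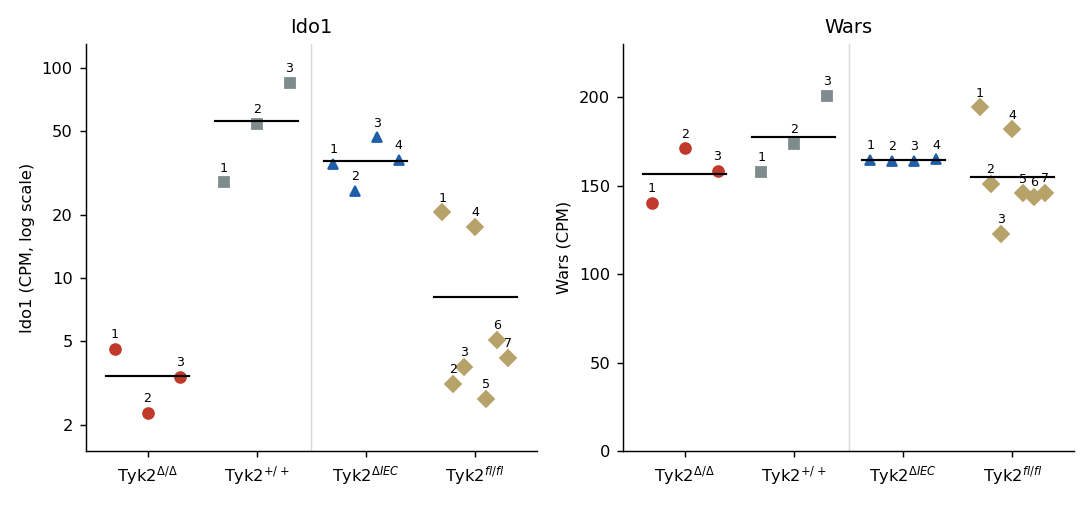
Ido1 (left, CPM on a log axis) and Wars (right, CPM on a linear axis) in each library, numbered by replicate, with a line at the group mean. Ido1 lies at 2.28 to 4.62 CPM in the 3 Tyk2Δ/Δ libraries, below all 3 Tyk2+/+ libraries, and at 25.9 to 46.7 CPM in the 4 Tyk2ΔIEC libraries, above all 7 Tyk2fl/fl libraries, whereas the Wars ranges overlap in both comparisons.

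Ido1 averaged 3.43 ± 1.17 CPM in Tyk2Δ/Δ and 56.0 ± 28.3 CPM in Tyk2+/+ tumors (SD, n = 3 libraries each). The log2 fold change was -4.02, that is, 16.3-fold lower in Tyk2Δ/Δ tumors (SE 0.43, 95% interval -5.01 to -3.04, adjusted p = 0.00395 by edgeR's quasi-likelihood test with Benjamini-Hochberg adjustment over 16179 genes). Ido1 ranked 51 by p among these genes. It averaged 36.04 ± 8.53 CPM in Tyk2ΔIEC (SD, n = 4) and 8.13 ± 7.53 CPM in Tyk2fl/fl tumors (SD, n = 7). There the log2 fold change was 2.15, that is, 4.42-fold higher in Tyk2ΔIEC tumors (SE 0.53, 95% interval 1.00 to 3.29, adjusted p = 0.0156 by edgeR over 17668 genes), with rank 1640. In a single edgeR fit of all 17 libraries, the change in Tyk2Δ/Δ minus the change in Tyk2ΔIEC was -6.17 on the log2 scale (SE 0.92, adjusted p = 0.000711, with 5.23% of genes called in this direction).

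Ido1 was the only one of the 7 members with enough reads to test that passed in either comparison. The median log2 fold change of the 7 was -0.50 in Tyk2Δ/Δ and 0.08 in Tyk2ΔIEC tumors, against 0.00 over all genes in each. Genes lower at an adjusted p under 0.05 made up 2.13% of those tested in the Tyk2Δ/Δ comparison, and genes higher made up 10.2% in the Tyk2ΔIEC comparison, so that Ido1 was one of many genes to rise there. With a change over 2-fold also asked for, the shares were 1.21% and 1.48%, and Ido1 passed in both. All 14 alternative settings kept the call in Tyk2Δ/Δ tumors. In Tyk2ΔIEC tumors the call was lost without Tyk2ΔIEC replicate 3 (log2 fold change 1.98, adjusted p = 0.0562 by edgeR).

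Across the 4 genotypes, mean Ido1 ran from Tyk2Δ/Δ through Tyk2fl/fl and Tyk2ΔIEC to Tyk2+/+ tumors. Of neighbours in this order, Tyk2Δ/Δ and Tyk2fl/fl tumors did not differ beyond the spread (log2 difference -1.24, adjusted p = 0.219 by edgeR), nor did Tyk2ΔIEC and Tyk2+/+ tumors (-0.63, adjusted p = 0.572). Tyk2ΔIEC and Tyk2fl/fl tumors did differ in this fit (2.14, adjusted p = 0.00532, with 13.1% of genes higher). The control groups were not alike, since Ido1 was 2.78 log2 units higher in Tyk2+/+ than in Tyk2fl/fl tumors (SE 0.52, adjusted p = 0.00405 by edgeR). In that contrast of controls 7.37% of genes were higher, and as each experiment had its own control mice, genotype and experiment cannot be told apart there. Ido1 in Tyk2ΔIEC was also 3.39 log2 units higher than in Tyk2Δ/Δ tumors (adjusted p = 0.0222 by edgeR, with 1.74% of genes higher).

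Several markers of CD8 T and NK cells and of smooth muscle were also lower in Tyk2Δ/Δ tumors. In Tyk2Δ/Δ tumors the 8 markers of CD8 T and NK cells summed to 2.77 to 3.38 CPM, against 8.33 to 15.3 CPM in Tyk2+/+ tumors, and all 4 that could be tested were lower by edgeR (Cd3e, Cd8a, Gzmb and Klrk1), against 2.13% of all genes. Cd8a, a chain of the T cell coreceptor, had 0.0992 to 0.376 CPM in Tyk2Δ/Δ and 1.34 to 3.37 CPM in Tyk2+/+ tumors (log2 fold change -3.35, adjusted p = 0.0231 by edgeR). Its call was lost without Tyk2Δ/Δ replicate 1 or 2 or Tyk2+/+ replicate 3 (adjusted p = 0.0781, 0.105 and 0.0611). Smooth muscle markers summed to 93.9 to 147 CPM in Tyk2Δ/Δ and 202 to 353 CPM in Tyk2+/+ tumors, with 4 of 5 lower. B cell markers summed to 0.992 to 1.85 CPM in Tyk2Δ/Δ and 3.95 to 51.0 CPM in Tyk2+/+ tumors, macrophage markers to 235 to 287 CPM in Tyk2Δ/Δ and 289 to 342 CPM in Tyk2+/+ tumors, and dendritic cell markers to 19.3 to 23.3 CPM in Tyk2Δ/Δ and 24.2 to 30.9 CPM in Tyk2+/+ tumors. None of the 3 B cell, 7 macrophage and 6 dendritic cell markers tested passed by edgeR or limma, although 3 in each list had an unadjusted p under 0.05 by edgeR. DESeq2 called 3 of the B cell markers, 1 of the macrophage markers and 0 of the dendritic cell markers.

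Epithelial markers summed to 6775 to 7381 CPM in Tyk2Δ/Δ and 6391 to 7705 CPM in Tyk2+/+ tumors. Markers of Paneth-like cancer cells, a tumor cell state that the study names, summed to 2086 to 2218 CPM in Tyk2Δ/Δ and 2167 to 2717 CPM in Tyk2+/+ tumors. Lyz1 alone averaged 1242 CPM in Tyk2Δ/Δ and 1482 CPM in Tyk2+/+ tumors. None of the 6 passed in this comparison by edgeR or limma, although 3 had an unadjusted p under 0.05 by edgeR. DESeq2 called 2 of them lower. The markers summed to 1029 to 2070 CPM in Tyk2ΔIEC and 1342 to 2586 CPM in Tyk2fl/fl tumors. Mmp7 had 383 to 669 CPM in Tyk2ΔIEC and 391 to 739.5 CPM in Tyk2fl/fl tumors. In that comparison 1 of 6 (Defa17, an antimicrobial peptide) was lower by edgeR, and DESeq2 called 2 lower. In the Tyk2ΔIEC comparison CD8 T and NK cell markers summed to 5.29 to 6.48 CPM, within the 3.38 to 6.82 CPM of Tyk2fl/fl tumors. Fibroblast markers summed to 756 to 936 CPM in Tyk2ΔIEC and 841 to 1428 CPM in Tyk2fl/fl tumors, with 4 of 5 lower (Col1a1, Col1a2, Dcn and Lum), where 9.71% of all tested genes were lower. No marker of these lists was at 0 in a whole group, and the part of these cells in the Ido1 changes was not tested. By staining, the study reports Mmp7-positive cells without Ido1 in Tyk2Δ/Δ tumors. In Tyk2ΔIEC tumors it reports more Ido1-positive cancer cells, mostly with Mmp7.

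The other dioxygenases were barely detected. Ido2, the paralog next to Ido1 on chr8:24531892-24576333, had 0, 2 and 0 counts in the Tyk2Δ/Δ libraries and 0, 1 and 4 in the Tyk2+/+ libraries. It had 12, 1, 0 and 1 counts in the Tyk2ΔIEC libraries and 0 to 4 in the Tyk2fl/fl libraries, so that Tyk2ΔIEC replicate 1 alone held 12 of its 34 counts. Tdo2, the liver enzyme, had 1, 3 and 0 counts in Tyk2Δ/Δ and 2, 5 and 2 in Tyk2+/+ libraries. It had 4, 6, 7 and 3 counts in Tyk2ΔIEC libraries and 0 to 5 in Tyk2fl/fl libraries. Of 4 liver markers, Serpina1a was at 0 in every Tyk2Δ/Δ, Tyk2ΔIEC and Tyk2+/+ library, whereas Alb and Ttr had reads in every library. The 4 summed to 51.9 to 70.3 CPM in Tyk2Δ/Δ and 24.5 to 49.0 CPM in Tyk2+/+ libraries. They summed to 25.3 to 70.5 CPM in Tyk2ΔIEC and 30.4 to 162 CPM in Tyk2fl/fl libraries. Ido2 and Tdo2 failed the filter on low counts in both comparisons and were not tested. A count of 0 allows a level of up to 0.0847 to 0.157 CPM, depending on the library (3 counts, counting error only). Per kilobase of exon, Ido1 made up at least 95.01% of the summed CPM of the 3 dioxygenases in every library, the Tyk2Δ/Δ libraries included.

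**Figure D2:**
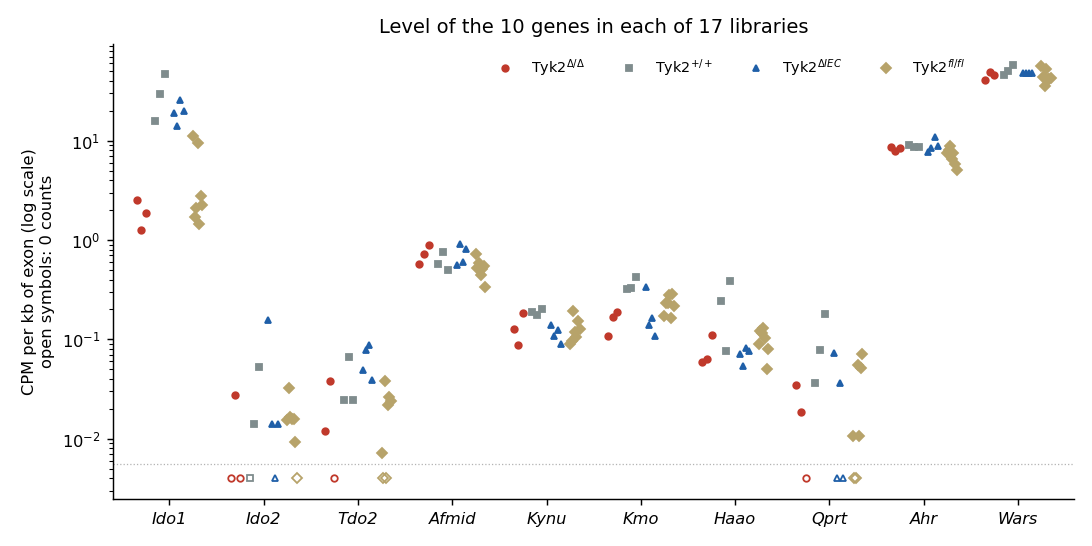
Level of each gene in each of the 17 libraries as CPM per kb of exon (log axis), by genotype from Tyk2Δ/Δ on the left to Tyk2fl/fl on the right, with open symbols for libraries at 0 counts. Wars, Ido1 and Ahr average 46.8, 12.2 and 8.03 CPM per kb and the other 7 genes 0.0227 to 0.623, and Ido1 lies lower in Tyk2Δ/Δ than in Tyk2+/+ and higher in Tyk2ΔIEC than in Tyk2fl/fl libraries.

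Compared per kilobase of exon, the means over all libraries were 46.8 CPM per kb for Wars, 12.2 for Ido1, 8.03 for Ahr, 0.623 for Afmid, 0.228 for Kmo, 0.136 for Kynu, 0.113 for Haao, 0.0386 for Qprt, 0.0317 for Tdo2 and 0.0227 for Ido2. Every enzyme after the opening step thus lay below 1 CPM per kb. In Tyk2Δ/Δ tumors, Ido1 averaged 1.88 CPM per kb, and so still exceeded each of these enzymes there.

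The enzymes that follow did not pass the test in either comparison. Afmid, the formamidase that releases kynurenine, had 2.03, 2.58 and 3.15 CPM in Tyk2Δ/Δ and 2.01, 2.67 and 1.78 CPM in Tyk2+/+ libraries (log2 fold change 0.26, 95% interval -0.32 to 0.84, adjusted p = 0.573 by edgeR). It had 2.01 to 3.22 CPM in Tyk2ΔIEC and 1.19 to 2.56 CPM in Tyk2fl/fl libraries (0.46, 95% interval -0.01 to 0.93, adjusted p = 0.153 by edgeR). The ranges overlapped in both. Kynu, the kynureninase, had 17, 11 and 24 counts in Tyk2Δ/Δ and 24, 21 and 26 in Tyk2+/+ libraries (log2 fold change -0.50, 95% interval -1.21 to 0.21), and 11 to 18 counts in Tyk2ΔIEC and 20 to 40 in the more deeply read Tyk2fl/fl libraries (-0.12, 95% interval -0.68 to 0.44).

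Kmo, the monooxygenase of the branch towards NAD, came nearest to a call. It had 0.508, 0.794 and 0.893 CPM in the Tyk2Δ/Δ libraries (11, 16 and 19 counts), against 1.53, 1.54 and 2.02 CPM (32, 30 and 42 counts) in the Tyk2+/+ libraries. The ranges did not overlap, as for 14% of tested genes in this direction. The log2 fold change was -1.22 (95% interval -1.87 to -0.56, adjusted p = 0.0662 by edgeR), and without the low-count filter it passed (-1.21, adjusted p = 0.0446). In Tyk2ΔIEC libraries Kmo had 1.58, 0.664, 0.770 and 0.508 CPM, of which replicate 1 was high, and in Tyk2fl/fl libraries 0.767 to 1.36 CPM (log2 fold change -0.27, 95% interval -0.92 to 0.38, adjusted p = 0.558 by edgeR).

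Haao, the dioxygenase that makes the precursor of quinolinic acid, had 6, 6 and 11 counts in Tyk2Δ/Δ and 24, 7 and 38 counts in Tyk2+/+ libraries. Tyk2+/+ replicate 2 was low and overlapped with the Tyk2Δ/Δ range. The log2 fold change was -1.61 (95% interval -2.94 to -0.28, adjusted p = 0.156 by edgeR), and without Tyk2+/+ replicate 2 it passed (-2.02, adjusted p = 0.0434 by edgeR), whereas without Tyk2+/+ replicate 3 it was -1.06 (adjusted p = 0.406). In Tyk2ΔIEC libraries Haao had 7, 5, 8 and 7 counts, against 7 to 21 counts in Tyk2fl/fl libraries (log2 fold change -0.47, 95% interval -1.10 to 0.17). Between experiments, Haao was lower in Tyk2ΔIEC than in Tyk2+/+ tumors (-1.73, adjusted p = 0.0450 by edgeR, with 1.7% of genes lower) and higher in Tyk2+/+ than in Tyk2fl/fl tumors (1.26, adjusted p = 0.0307, with 7.37% of genes higher). Both calls were lost when the shared fit kept only replicates 4 to 7 of the Tyk2fl/fl group (adjusted p = 0.0585 and 0.0592 by edgeR). Qprt, which turns quinolinic acid into a nucleotide, had 2, 1 and 0 counts in Tyk2Δ/Δ and 2, 4 and 10 in Tyk2+/+ libraries, and 0 to 4 in Tyk2ΔIEC and 0 to 6 in Tyk2fl/fl libraries, and was not tested.

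**Figure D3:**
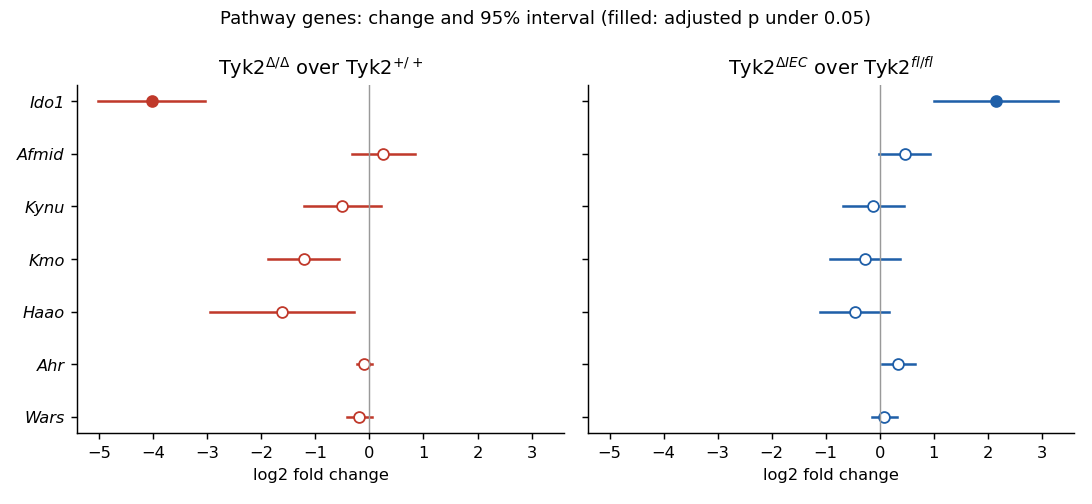
Log2 fold change of the 7 members that were tested, with 95% intervals from edgeR, in Tyk2Δ/Δ over Tyk2+/+ (left) and Tyk2ΔIEC over Tyk2fl/fl tumors (right), filled where the adjusted p was under 0.05. Ido1 is filled in both panels, at -4.02 and 2.15, and the other 6 genes are open.

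Ahr, the ligand-activated receptor through which kynurenine is known to act on transcription, did not pass the test in either comparison. It had 52.7, 48.7 and 51.6 CPM in Tyk2Δ/Δ and 55.3, 53.5 and 53.7 CPM in Tyk2+/+ libraries (log2 fold change -0.09, 95% interval -0.23 to 0.05, adjusted p = 0.413 by edgeR). The ranges did not overlap, as for 14% of tested genes in this direction. In Tyk2ΔIEC libraries Ahr had 46.9, 52.1, 67.2 and 54.8 CPM, against 31.4 to 54.6 CPM with a median of 46.5 in Tyk2fl/fl libraries (0.34, 95% interval 0.04 to 0.65, adjusted p = 0.104 by edgeR). Tyk2fl/fl replicates 6 and 7 were the lowest, at 36.3 and 31.4 CPM. Ahr passed with Tyk2fl/fl replicates 4 to 7 alone as controls (0.50, adjusted p = 0.0304 by edgeR) and in the fit of all 17 libraries (0.34, adjusted p = 0.0498 by edgeR, with 13.1% of genes higher).

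Of the genes that work with Ahr or respond to it, 1 passed by edgeR in each comparison. Of 8 listed, 5 were tested in the Tyk2Δ/Δ comparison, with 1 higher and a median log2 fold change of 0.07, against 0.00 over all genes. Nqo1, a quinone reductase that also answers to oxidative stress, was the one that rose (24.7 to 28.9 CPM in Tyk2Δ/Δ and 17.4 to 18.8 CPM in Tyk2+/+ tumors, log2 fold change 0.58, adjusted p = 0.0194 by edgeR), in a direction that 0.668% of genes took. Its call was lost without Tyk2Δ/Δ replicate 1 or 2 or Tyk2+/+ replicate 3 (adjusted p = 0.0611, 0.104 and 0.0713). Cyp1b1, a cytochrome P450 induced through Ahr, had 18, 23 and 25 counts in Tyk2Δ/Δ and 8, 1 and 6 in Tyk2+/+ libraries, which was 4.19-fold but short of the threshold (adjusted p = 0.0653 by edgeR). Cyp1b1 passed by DESeq2 (adjusted p = 0.0306) and in edgeR without the low-count filter (adjusted p = 0.0234), and in none of the other 11 alternatives. The study, which used DESeq2, lists Cyp1b1 among the genes over 2-fold higher in Tyk2Δ/Δ tumors. DESeq2 called 2 of the 5 tested genes higher here. In the Tyk2ΔIEC comparison 6 were tested, with a median of 0.16. Arnt, the partner of Ahr, was the one called and was higher (log2 fold change 0.23, adjusted p = 0.0318 by edgeR), against a background of 10.2%. Arnt lost its call without any 1 Tyk2ΔIEC library or Tyk2fl/fl replicate 2, 4 or 5 (adjusted p = 0.0542 to 0.137).

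Wars, the most abundant of the genes, did not pass in either comparison. It had 140, 171 and 158 CPM in Tyk2Δ/Δ and 158, 174 and 201 CPM in Tyk2+/+ libraries (log2 fold change -0.19, 95% interval -0.42 to 0.05, adjusted p = 0.321 by edgeR). In Tyk2ΔIEC libraries it had 164.5, 164.1, 163.9 and 164.8 CPM, against 123 to 194 CPM in Tyk2fl/fl libraries (0.08, 95% interval -0.14 to 0.31, adjusted p = 0.610). The 4 Tyk2ΔIEC libraries were nearly equal, and the Tyk2fl/fl libraries surrounded them. Among the 19 other cytosolic synthetases listed, all tested, none passed in the Tyk2Δ/Δ comparison by edgeR, DESeq2 or limma (2 had an unadjusted p under 0.05). In Tyk2ΔIEC tumors 3 were higher, namely Iars (0.38, adjusted p = 0.00184), Lars (0.26, adjusted p = 0.0136) and Qars (0.19, adjusted p = 0.0424 by edgeR), which charge tRNA with isoleucine, leucine and glutamine. The median over the 19 was 0.12, against 0.00 over all genes, and the background share was 10.2%. Iars kept its call in all 20 alternatives. Lars lost it in 4, among them without Tyk2ΔIEC replicate 2 or 3 (adjusted p = 0.0553 and 0.0617), and Qars in 11, among them without Tyk2ΔIEC replicate 2, 3 or 4 or Tyk2fl/fl replicate 1, 2, 3, 5 or 6 (adjusted p = 0.0568 to 0.167).

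Of 9 genes listed for the signal from interferon gamma to Ido1, 8 were tested. The list includes genes of the type I interferon signal as well (Stat2 and Irf9). Genes of the list that passed had the sign of Ido1 in each comparison with smaller log2 fold changes. In Tyk2Δ/Δ tumors 3 were lower and none higher, with a background of 2.13% lower and a median log2 fold change of -0.30 against 0.00 over all genes. Irf9, which pairs with Stat2 in the complex formed by type I interferon, had 55.4, 55.2 and 59.0 CPM in Tyk2Δ/Δ and 90.5, 89.9 and 100.6 CPM in Tyk2+/+ libraries (-0.73, SE 0.07, adjusted p = 0.00200 by edgeR). Stat2 (-0.69, adjusted p = 0.0237) and Irf1 (-0.60, adjusted p = 0.0212 by edgeR) were lower too. Irf9 passed in all 14 alternatives. The call on Stat2 was lost without Tyk2Δ/Δ replicate 1 or 2 or Tyk2+/+ replicate 3 (adjusted p = 0.0782, 0.110 and 0.0589), and that on Irf1 without any 1 of the Tyk2Δ/Δ libraries or Tyk2+/+ replicate 3 (adjusted p = 0.0521 to 0.108). Ifngr1, a receptor chain, and Jak1 were near 0 (-0.02 and -0.02). Ifng itself had 1 count over the Tyk2Δ/Δ libraries and 16 over the Tyk2+/+ libraries, and was not tested.

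In Tyk2ΔIEC tumors 3 of the 8 were higher and none lower, with a median of 0.18 and a background of 10.2%. Irf1 had 169 to 223 CPM in Tyk2ΔIEC and 96.7 to 180 CPM in Tyk2fl/fl libraries (0.48, SE 0.15, adjusted p = 0.0433 by edgeR). Jak2, a kinase of the receptor, rose by 0.32 (adjusted p = 0.0187) and Stat2 by 0.38 (adjusted p = 0.0347), whereas Irf9 did not pass (0.19, adjusted p = 0.167 by edgeR). Irf9 was 81.8 to 97.0 CPM in Tyk2ΔIEC and 61.0 to 89.1 CPM in Tyk2fl/fl libraries. Ifng had 0 to 7 counts in Tyk2ΔIEC and 2 to 8 in the more deeply read Tyk2fl/fl libraries, and was not tested. Ifngr1 (122 to 161 CPM in Tyk2ΔIEC and 124.5 to 158 CPM in Tyk2fl/fl libraries) and Jak1 (143 to 160 and 119 to 149 CPM) did not pass. Of 20 alternatives, 9 lost the call on Irf1, 10 on Stat2 and 4 on Jak2. Among them were the fits without any 1 Tyk2ΔIEC library or without Tyk2fl/fl replicate 2, 5 or 6 for Irf1 (adjusted p = 0.0542 to 0.144), without any 1 Tyk2ΔIEC library or Tyk2fl/fl replicate 2, 3 or 5 for Stat2 (adjusted p = 0.0530 to 0.110), and without Tyk2ΔIEC replicate 2, 3 or 4 for Jak2 (adjusted p = 0.0571 to 0.0812). In the fit of all libraries, the change in Tyk2Δ/Δ minus that in Tyk2ΔIEC was negative for Irf1 (-1.07), Stat2 (-1.06), Irf9 (-0.92) and Jak2 (-0.69), with adjusted p-values of 0.00906, 0.00239, 0.000802 and 0.00628 by edgeR. These 4 differences passed in all 24 alternatives, and 5.23% of genes were called in that direction. For none of the members but Ido1 did this difference pass.

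**Figure D4:**
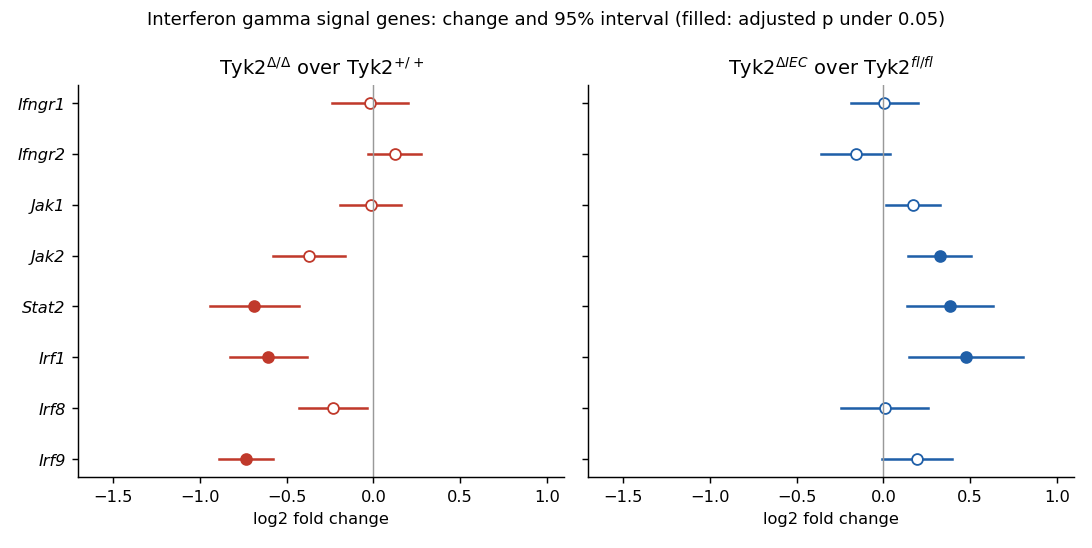
Log2 fold change of the 8 tested genes listed between interferon gamma and Ido1, with 95% intervals from edgeR, filled where the adjusted p was under 0.05. Stat2 and Irf9 belong to the type I interferon signal as well. Panels show Tyk2Δ/Δ over Tyk2+/+ (left) and Tyk2ΔIEC over Tyk2fl/fl tumors (right). Stat2, Irf1 and Irf9 are filled below 0 on the left, and Jak2, Stat2 and Irf1 above 0 on the right.

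Ido1 also varied widely between libraries of 1 genotype. In the Tyk2fl/fl group its SD on the log2 scale was 1.18, which ranked 64 among 13307 genes (median gene 0.175), and replicates 1 and 4 had 20.6 and 17.5 CPM, against 2.67 to 5.09 CPM in the other 5. Replicate 1 is among the libraries with high Xist and replicate 4 is not. In Tyk2+/+ tumors the SD was 0.79 (rank 73), in Tyk2Δ/Δ tumors 0.50 (rank 350) and in Tyk2ΔIEC tumors 0.35 (rank 1193). Ahr had SDs of 0.03 to 0.28 in the 4 groups, below the median gene in Tyk2Δ/Δ and Tyk2+/+ tumors (ranks 9397 and 12694) and above it in Tyk2ΔIEC and Tyk2fl/fl tumors (ranks 2776 and 3364). Wars ranked 13305 in the Tyk2ΔIEC group and lay above the median gene in the other 3 groups (ranks 3997 to 4703).

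The genes whose log2 CPM followed Ido1 most closely over the 17 libraries were Gbp2, Tgtp1, Parp14, Gm12250, Gbp4 and Apol10b (Pearson r 0.97 to 0.961), among 13306 genes. Gbp2, a guanylate-binding protein, ran from 13.7 to 25.0 CPM in Tyk2Δ/Δ and 114 to 263 CPM in Tyk2+/+ libraries, and from 122 to 192 CPM in Tyk2ΔIEC and 25.7 to 110 CPM in Tyk2fl/fl libraries. Such an r holds the differences between genotypes. Taken as deviations from the mean of each genotype, the closest were Gbp4, Gbp2, Gm12250, Igtp, Tgtp1 and Tap2 (r 0.917 to 0.869 over 17 libraries). Gbp2, Gbp4, Tgtp1 and Gm12250 stand in both sets. All points share their library, its depth and its mix of cells, so these values are a description.

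Among the members, the deviations of Wars went with those of Ido1 (r 0.721, Spearman's rho 0.578, rank 63 among 13306 genes). Wars was highest in the Tyk2+/+ replicate in which Ido1 reached 85.2 CPM (201 CPM) and in the 2 Tyk2fl/fl libraries with the most Ido1 (194 and 182 CPM). Without Tyk2fl/fl replicates 1 and 4, the libraries farthest from the median of Ido1, r fell to 0.394 over 15 libraries, so that the relation rests largely on them. Among the Tyk2Δ/Δ libraries, replicate 1 had the most Ido1 and the least Wars. For the other 19 synthetases r lay between -0.407 and 0.729 with a median of 0.21, and Mars, the methionyl-tRNA synthetase, was the highest. Ahr, Afmid, Kmo, Kynu and Haao had r between -0.0948 and 0.118. In the signal list Irf9, Stat2 and Irf1 had r of 0.654, 0.628 and 0.501. Without Tyk2fl/fl replicates 1 and 4 these values were 0.426, 0.518 and 0.439, and that of Mars fell from 0.729 to 0.458.

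**Figure D5:**
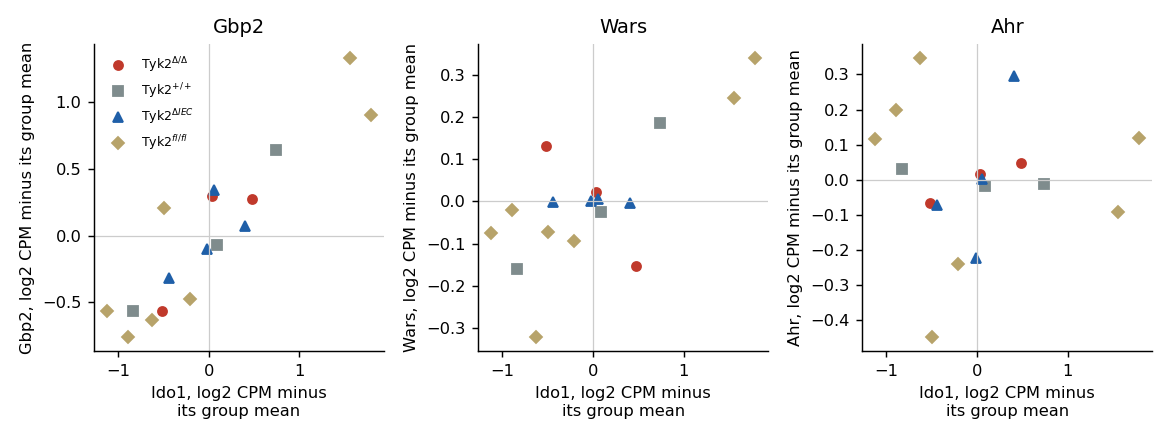
Deviation of Gbp2 (left), Wars (middle) and Ahr (right) from the mean of their genotype, in log2 CPM, against the deviation of Ido1, with 1 point for each of the 17 libraries. Gbp2 (r 0.908) and Wars (r 0.721) are high in the 2 Tyk2fl/fl libraries farthest to the right, and Ahr shows no slope.

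Few genes of the routes beside the main one passed. Of 9 listed genes of kynurenine's side branches and of NAD synthesis, 6 were tested in the Tyk2Δ/Δ comparison, with 1 lower and a median of -0.07. Over all genes 2.13% were lower, and the median was 0.00. The gene called was Kyat3, an aminotransferase that makes kynurenic acid. It had 1.64 to 1.79 CPM in Tyk2Δ/Δ and 2.97 to 3.49 CPM in Tyk2+/+ libraries (log2 fold change -0.95, adjusted p = 0.0422 by edgeR). This call was lost without any 1 library (adjusted p = 0.0598 to 0.167). In the Tyk2ΔIEC comparison 7 were tested, and none passed by edgeR, DESeq2 or limma (1 had an unadjusted p under 0.05 by edgeR). There 10.2% of all genes were higher and 9.71% lower by edgeR.

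Of 11 genes for other uses and for transport of tryptophan, 9 were tested. Slc6a14, an amino acid transporter, was lower in Tyk2Δ/Δ tumors (-0.53, adjusted p = 0.0185 by edgeR), 1 of 9 genes against a background of 2.13%. Maoa, a monoamine oxidase that breaks down serotonin (0.47, adjusted p = 0.0318), and Slc16a10, a carrier of aromatic amino acids (0.52, adjusted p = 0.0394 by edgeR), were higher in Tyk2ΔIEC tumors, 2 of 9 genes against a background of 10.2%. The medians over the 9 were 0.08 in Tyk2Δ/Δ and 0.19 in Tyk2ΔIEC tumors. The call on Slc6a14 was lost without Tyk2Δ/Δ replicate 2 or Tyk2+/+ replicate 3 (adjusted p = 0.0908 and 0.0868). That on Maoa was lost without Tyk2ΔIEC replicate 2, 3 or 4 or Tyk2fl/fl replicate 2 or 6 (adjusted p = 0.0623 to 0.121), and that on Slc16a10 without Tyk2ΔIEC replicate 2, 3 or 4 or Tyk2fl/fl replicate 2, 4, 5 or 6 (adjusted p = 0.0647 to 0.145).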

How the data were processed

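Per the labels and the study's methods, the authors removed AOM-DSS tumors from mouse colon, made directional libraries from poly(A) RNA, read 75 bp single ends, mapped them by STAR 2.6.1a and took its read count for each gene. The deposited values are these raw counts, with no normalization or filter. The submitters' processing notes name GRCm38, and the methods name Gencode M23. Gene names and positions here come from Gencode M21 (GRCm38), which matched 55240 of 55421 identifiers, and the 181 unmatched held 0.002% of counts. All 17 columns equalled the single-sample tables.

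The genes and lists were chosen with earlier results of these data known. Groups follow the genotype in each label. Each deletion was compared with its own control by edgeR 4.0.16 (quasi-likelihood F test, TMM, filterByExpr with a minimum count of 10, Benjamini-Hochberg over all genes tested, threshold 0.05). A fit of all libraries gave the difference between deletions and the pairs of genotypes. The methods name DESeq2, which is an alternative here (1.42.0), beside limma voom (3.58.1), RLE size factors, no filter, a minimum count of 50, a fit without immunoglobulin, ribosomal and mitochondrial genes, Tyk2fl/fl replicates 4 to 7 alone as controls, a replicate block and leaving out each library. SE is the log2 fold change over the root of F, and intervals use its degrees of freedom at 95%. Log2 CPM used a prior count of 2. Likeness to Ido1 was ranked among genes with a mean log2 CPM above 1. All 10 pathway genes are named, and from each list at most 4 genes with the smallest adjusted p and any marker at 0 in a group. Jak1, Ifngr1, Irf8, Ifng and Mmp7 were named outside this rule, after their values were seen. 2 listed genes are not reported here and were left out of the lists' counts. Protein sequences were not analysed here. The scripts were tested on simulated data in R 4.3.3.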

Additional observations from a re-analysis of the deposited data

Results flagged for a closer look

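The change of Ido1 in Tyk2Δ/Δ tumors differed from its change in Tyk2ΔIEC tumors by -6.17 on the log2 scale in the fit of all 17 libraries (adjusted p = 0.000711 by edgeR). Ido1 was lower in 3 of 3 Tyk2Δ/Δ libraries than in any Tyk2+/+ library, and higher in 4 of 4 Tyk2ΔIEC libraries than in any Tyk2fl/fl library. In the same test the difference was -1.07 for Irf1, -1.06 for Stat2, -0.92 for Irf9, -0.69 for Jak2, -4.17 for Cd8a (adjusted p = 0.00935 by edgeR), -1.04 for Kyat3 (adjusted p = 0.0485), -0.36 for Lars (adjusted p = 0.0325) and -0.31 for Iars (adjusted p = 0.0443). Of the 24 alternatives, 15 lost the call on Kyat3, 11 on Lars and 17 on Iars, most of them fits without 1 library (adjusted p = 0.0510 to 0.121 without any 1 of 13 libraries for Kyat3, 0.0602 to 0.130 for 9 libraries for Lars and 0.0526 to 0.141 for 14 libraries for Iars).

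In 44 groups of 4 or 7 libraries, of the 7 tested members and of some named list genes, 2 libraries stood far from the others. Chance alone would set apart about 1 in 20 groups. Nqo1 was at 5.84 log2 CPM in Tyk2fl/fl replicate 7, the highest of its group. Qars was at 7.61 log2 CPM in Tyk2ΔIEC replicate 1. No group of the 7 tested members was set apart in this way, and Ido2, Tdo2 and Qprt were not among the groups.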

How the results depend on the processing

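Ido1 kept its direction and call in Tyk2Δ/Δ tumors under all 14 alternatives, and its log2 fold change was -4.34 to -3.59 when each library was left out. In Tyk2ΔIEC tumors this range was 1.98 to 2.57, and the call was lost without Tyk2ΔIEC replicate 3. The difference between the deletions kept its call under all 24 alternatives (-6.58 to -5.71 with each library left out). Of 396 values of the tested members under alternatives, 389 kept their direction and side of the threshold, 4 gained a call, 2 lost one and 1 reversed.

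Members called lower in Tyk2Δ/Δ tumors were 2 without the low-count filter (Ido1 and Kmo) and 1 to 2 with each library left out. Over all genes these counts were 797 and 95 to 610. Members called higher in Tyk2ΔIEC tumors were 2 in the fit of all 17 libraries, where 13.1% of all genes were higher. They were also 2 with Tyk2fl/fl replicates 4 to 7 alone (Ido1 and Ahr in both), and 0 to 1 with each library left out. No share of all genes is given for the other settings. Reversals lay near 0. Kynu in Tyk2ΔIEC tumors was -0.23 to 0.011 with each library left out, Slc16a10 in Tyk2Δ/Δ tumors -0.090 to 0.29 (-0.0056 without Tyk2+/+ replicate 1) and Nqo1 in Tyk2ΔIEC tumors -0.60 to 0.012, the last of these without Tyk2fl/fl replicate 7.

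Over all genes, 108 were higher and 345 lower in Tyk2Δ/Δ tumors. These counts were 15 and 195 with a change over 2-fold, 223 and 797 without the filter, 356 and 904 by DESeq2, 52 higher in the fit of all libraries, and 17 to 212 and 95 to 610 with each library left out. In Tyk2ΔIEC tumors 1799 were higher and 1716 lower, or 262 and 289 with a change over 2-fold, and 740 to 1953 and 892 to 1845 with each library left out. For the difference between the deletions, 471 were higher and 903 lower, or 307 and 561 without the filter, 727 higher by DESeq2, 841 higher with Tyk2fl/fl replicates 4 to 7, and 173 to 676 and 387 to 1014 with each library left out. The cause of these shifts was not tested.

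The titles share replicate numbers, but same-numbered libraries did not deviate together (correlations -0.11 to -0.00 in the first experiment and -0.37 to 0.07 in the other), so the numbers were not taken as pairs. With the replicate block, Ido1 in Tyk2ΔIEC tumors was 2.04 (adjusted p = 0.0703 by edgeR), 0 members were higher there, Nqo1 there was 0.078 and Kyat3 -0.16. Over all genes 24 were higher and 222 lower in Tyk2Δ/Δ tumors, and 619 higher and 684 lower in Tyk2ΔIEC tumors under the block.

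With 3 to 7 libraries in a group and 5 to 45 counts per library for Kynu, Kmo and Haao, the 95% intervals of these enzymes span up to -2.94 to -0.28, and Ido2, Tdo2 and Qprt were not tested.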
